A study of Mus musculus with 21 samples.

Results

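The genes described here are the named pseudogenes of the mouse, taken as every gene in the deposited files whose symbol ends in "-ps" with or without a number in the GENCODE vM21 annotation of GRCm38 (mm10). They numbered 208 of the 9657 genes in the files, and for 186 of them the parent gene, taken as the symbol before "-ps", was in the files too, with 84 distinct parents. The cells were primary mouse hepatocytes of wild-type genotype, which are liver cells taken from the animal and kept in culture, collected on Day 1 after exposure to an RNA interference agent against Ttr or to PBS, the carrier buffer. There were 7 groups of 3 libraries, which were PBS alone and TTR-1236, TTR-1186 and Reference 4, each at 0.2 µM and at 2 µM. Each library was made with the QuantSeq 3′ mRNA-seq kit, whose reads come from the 3′ ends of RNA with a poly(A) tail. The labels give neither the strain, sex or number of the animals, nor the structures of the 3 agents, nor whether libraries of one group are separate cultures, so the p-values below measure only the spread between these libraries, which may be technical.

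A pseudogene is a gene copy that has usually lost the ability to make the protein of its parent. Most mouse examples are processed pseudogenes, which arose when a spliced messenger RNA was reverse transcribed and inserted elsewhere in the genome, so they lack introns and sit away from the parent's promoter. Genes that are strongly expressed in the germ line, above all those for ribosomal proteins, have left many such copies. Because a recent copy is nearly the same sequence as its parent, a short read cannot always be placed on the right locus, and a count given to a pseudogene can hold reads that came from the parent, from another copy, or from a host gene whose intron holds the copy.

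Of the 208 members, 178 were annotated as processed pseudogenes, 7 as transcribed processed, 8 as transcribed unprocessed, 5 as unprocessed and 7 as protein coding, and 3 had other types. The parents of 144 members encode proteins of the ribosome. The other 64 had parents among chaperones and ubiquitin genes (6 members), liver secreted, carrier and detoxification proteins (8), subunits of the respiratory chain and ATP synthase (4), and further classes. A single exon made up 193 of the 208 models. No other annotated gene covered 127 members, 37 lay in an intron of a gene on the opposite strand, 27 in an intron of a gene on their own strand, and 17 overlapped an exon of another gene.

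Ttr, the target, measured 2168 to 2336 CPM (reads per 1000000 reads of a library) in the 3 PBS libraries and 3.19 to 27.1 CPM in the 18 treated libraries. Libraries held 14158740 to 37410773 reads. Of 8 hepatocyte markers 7 were in the files, with a summed level of 12960 to 16340 CPM in PBS and 11130 to 18310 CPM in treated libraries, against 79.6 to 101 CPM in PBS and 77.2 to 184 CPM in treated libraries for the 2 of 6 macrophage markers in the files. Of the endothelial markers 1 of 6 was in the files, at 8.09 to 10.1 CPM in PBS and 0.179 to 10.6 CPM in treated libraries, of the stellate or fibroblast markers 1 of 6 (6.57 to 13.7 and 5.67 to 25.3 CPM), of the bile duct markers 2 of 5 (29.1 to 42.3 and 24.5 to 48.2 CPM) and of the blood markers none of 5. The share of reads in the 2 mitochondrial ribosomal RNA genes differed widely between libraries. It was 3.26%, 2.70% and 0.797% in PBS, 0.278% to 0.487% with TTR-1236 at 2 µM, 0.383% to 1.098% with Reference 4 at 2 µM, and 1.95%, 0.622% and 2.21% with TTR-1186 at 2 µM. At 0.2 µM it was 1.47% to 1.73% with TTR-1236, 1.49% to 3.73% with TTR-1186 and 2.13% to 3.50% with Reference 4. PBS replicate 3 and TTR-1186 2 µM replicate 2 were thus each low within their group, and the second listed 109 genes at 0, against 0 to 29 elsewhere.

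How alike the copies are can be seen in the last 60 coding bases before the stop codon. The printed stretches come from the GENCODE vM21 transcript sequences on GRCm38, read 5′ to 3′ on the strand of the gene, and capitals mark bases of a pseudogene that differ from its parent. Where the reads lay was not measured, so the window shows likeness only. For the ribosomal protein gene Rpl10 (chr X, + strand, whole gene chrX:74270812-74273135) the window was identical in Rpl10-ps1, Rpl10-ps3, Rpl10-ps5 and Rpl10-ps6:
Rpl10 and its 4 copies: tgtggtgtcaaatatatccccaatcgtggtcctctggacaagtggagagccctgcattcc
For Rps12 (chr10:23785183-23787275, - strand) the window was identical in Rps12-ps2, Rps12-ps3, Rps12-ps9, Rps12-ps11 and Rps12-ps20, copies that nevertheless differed in level:
Rps12 and these 5 copies: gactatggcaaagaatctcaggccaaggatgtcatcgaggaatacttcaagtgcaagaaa

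Copies of Rpl31 (chr1:39367842-39371911, + strand) showed how a family can share its own change. Rpl31-ps8 (chr15:90764279-90764656) had the parent's window, Rpl31-ps9, Rpl31-ps10, Rpl31-ps12 and Rpl31-ps16 had the same single difference, and Rpl31-ps13 (chr13:100415565-100415942) had a further one:
Rpl31: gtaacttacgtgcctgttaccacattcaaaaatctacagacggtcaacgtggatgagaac
Rpl31-ps9: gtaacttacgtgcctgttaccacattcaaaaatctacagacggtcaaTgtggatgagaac
Rpl31-ps13: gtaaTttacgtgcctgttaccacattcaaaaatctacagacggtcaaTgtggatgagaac

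Tmed10-ps and Tcea1-ps1, which fell far, were as close to their parents here. Tmed10-ps (chr13:35990861-35991520, - strand) had 1 difference from Tmed10, and Tcea1-ps1 (chr15:90882615-90883518, + strand) had none from Tcea1:
Tmed10: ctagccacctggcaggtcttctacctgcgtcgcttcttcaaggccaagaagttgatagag
Tmed10-ps: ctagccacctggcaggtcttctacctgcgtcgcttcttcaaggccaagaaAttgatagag
Tcea1 and Tcea1-ps1: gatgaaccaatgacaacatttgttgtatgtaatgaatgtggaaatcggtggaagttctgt

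Rpl15-ps2 (chr9:72060937-72061549, + strand) rose and Rpl21-ps15 (chrX:151215167-151215649, - strand) was the copy furthest above its parent in level. Each had 1 difference in the window, and the Rpl21-ps15 window was the same as that of Rpl21-ps6:
Rpl15: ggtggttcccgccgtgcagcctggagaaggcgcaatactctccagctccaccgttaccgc
Rpl15-ps2: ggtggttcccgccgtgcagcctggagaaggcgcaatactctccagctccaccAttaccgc
Rpl21: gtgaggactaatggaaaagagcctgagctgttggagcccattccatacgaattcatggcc
Rpl21-ps15: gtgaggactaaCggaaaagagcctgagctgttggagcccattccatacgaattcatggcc

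Over whole transcripts, 185 of the 186 members with a parent in the files aligned to it on the same strand, with a median identity of 98.8% (87.3% to 100%). Identity was 100% in 19 members, at least 99% in 80, and under 95% in 20. The exception was Rpl13-ps1, which aligned to Rpl13 only on the opposite strand (92.2% over 668 bases). A median of 56.1% of a member's 50-base words also occurred in the parent, 16 members shared every such word with the parent, and 3 shared none. Most alignments stopped short of the parent's 3′ end, at a median of 45 bases before it. In 9 members the alignment reached the parent's last base, in 124 it ended 1 to 100 bases before, and in 52 more than 100 bases before.

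Named pseudogenes ran from 4.31 CPM (Zfp862-ps, mean of 21 libraries) to 5422 CPM, with a median of 69.8 CPM, against 509 CPM for the parents and 23.9 CPM for all genes in the files. All had passed whatever minimum had shaped the deposited gene list, in which the lowest gene averaged 1.22 CPM, so copies below it are not described here. A 3′ kit gives about 1 read per RNA, so CPM was compared between genes without dividing by length. Summed, the members held 4.53% to 5.66% of the CPM of a library and their parents 6.05% to 7.72%. A read counted at several loci would enter these sums more than once, and whether that occurred was not given.

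The highest member was Ftl1-ps1, a copy of the ferritin light chain gene, at 5422 CPM (lowest library 4192, median 5539, highest 6413), above the 4128 CPM of Ftl1 itself. Gstp-ps, a copy of a glutathione S-transferase pi gene, followed at 3499 CPM (2728 to 4260), and no gene with the symbol Gstp was in the files. Next were 4 copies of ribosomal protein genes, each a little below its parent. Rpl36-ps2 and Rpl36-ps3 averaged 1829 and 1817 CPM beside 2127 for Rpl36, Rpl10-ps3 averaged 1754 beside 1811 for Rpl10, and Rpl10a-ps1 averaged 1596 beside 1656 for Rpl10a. Ftl1-ps1 and Rpl10-ps3 are 2 of the 7 members annotated as protein coding. At the other end, Phf20-ps averaged 4.40 CPM.

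Relative to the parent, the median member had 0.275 of the parent's CPM (quartiles 0.0579 and 0.646). The ratio was under 0.1 in 61 of 186 pairs (32.8%), of which 14 were under 0.01. It was 0.1 to 0.5 in 65 pairs, 0.5 to 0.9 in 29, 0.9 to 1.1 in 18 and at least 1.1 in 13. The lowest belonged to Krt8-ps, a copy of the keratin 8 gene, which averaged 8.38 CPM beside 5281 for Krt8, a ratio of 0.00159. Tpt1-ps5, a copy of the gene for translationally controlled tumour protein, was the next lowest, at 7.80 CPM beside 2950 for Tpt1 (0.00264). Across the 21 libraries the median of the log2 ratio to the parent, with 1 CPM added to both, lay between -2.37 (PBS replicate 3) and -1.66 (PBS replicate 1).

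**Figure D1:**
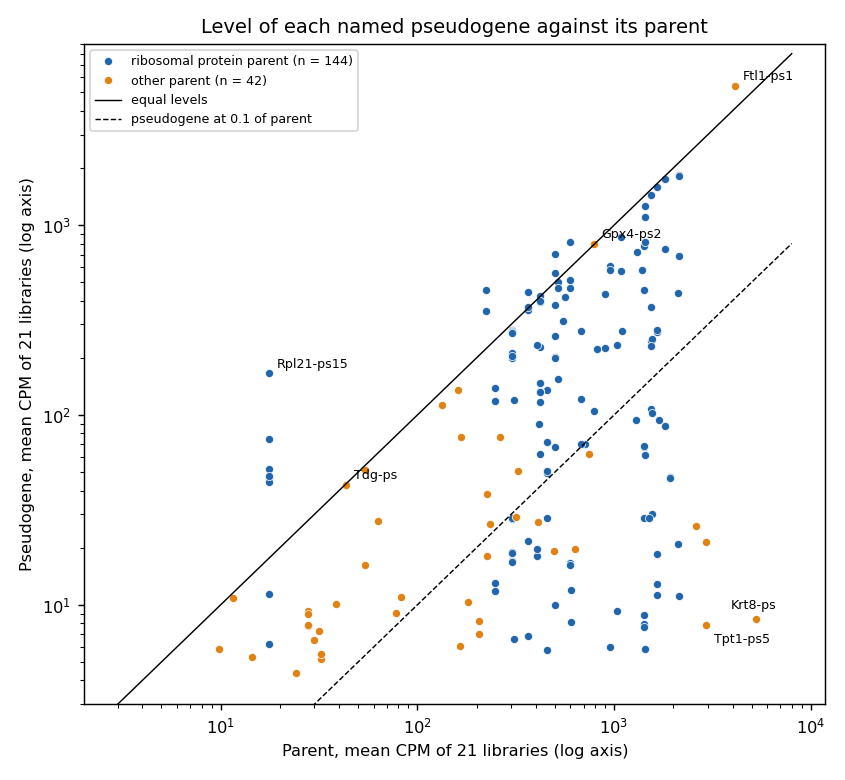
Mean CPM over 21 libraries of each of the 186 named pseudogenes with a parent in the files (vertical, log axis) against the mean CPM of the parent (horizontal, log axis), in blue for 144 members with a ribosomal protein parent and in orange for 42 others. The solid line marks equal levels and the dashed line 0.1 of the parent, under which 61 members lie, with Rpl21-ps15 and the Rpl21 copies at the upper left above their low parent.

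Members alike in sequence to the parent had very different levels. The 16 members that shared every 50-base word with the parent ranged in level ratio from 0.00723 (Tpt1-ps3) to 0.973 (Rps6-ps4), with a median of 0.354. Members whose alignment reached the parent's last base had a median ratio of 0.573 (9 members, 0.0839 to 1.31), those ending 1 to 100 bases before it 0.298 (124 members), and those ending further off 0.199 (52 members). The 10 aligned members whose transcript model ends in at least 10 A had a median ratio of 0.711, and the other 175 one of 0.263. Across the 185 members, Spearman's rho of the ratio was 0.169 with the share of 50-base words, 0.188 with identity and -0.247 with the bases left after the alignment. These are descriptions across genes that share libraries, and families share sequence, so no p is given.

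Reads of 2 loci that are split by chance among equal alignments stay in 1 proportion in every library, to within counting error. The chi-square of the 2 by 21 table of reads, divided by its degrees of freedom, measures this, and a value under 1 means that the proportion did not vary beyond counting error. Counts that move apart between libraries give higher values. A split by chance gives values near 1, and values far below 1 mean counts closer together than such a split leaves. The cause of such low values was not tested. Against the parent it was under 1 for 3 members, under 2 for 7, and had a median of 54.7. The 3 were Tdg-ps (0.251), a copy of the thymine DNA glycosylase gene at 42.9 CPM beside 43.6 for Tdg, Gpx4-ps2 (0.35), a copy of the glutathione peroxidase 4 gene at 799 CPM beside 787 for Gpx4, and Rps6-ps4 (0.629), at 502 CPM beside 516 for Rps6. In the 21 libraries the log2 ratio of Gpx4-ps2 to Gpx4 covered a range of 0.047, whereas for the median member with a parent the range was 1.22, and for Hspa9-ps1 it was 6.07.

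The closest gene by this measure was more often another member or another pseudogene than the parent. Each member has only 1 parent but many other genes to be matched with. Counting error is wide where reads are few, so low genes reach a value under 1 more easily. No conclusion is drawn from the numbers for parents and for other genes. Searched over all genes, the closest gene had a value under 1 for 56 of 208 members (26.9%), and it was another member for 34 of these, another pseudogene for 17, the parent for 3 and some other gene for the rest. The same held for 104 of 545 other pseudogenes (19.1%) and 397 of 8904 other genes (4.46%), and the difference between these shares was not tested. Rpl27-ps3 and Gm11518, a predicted gene, differed by 1 to 24 reads per library (0.0158). Cbx3-ps6, a copy of the gene for the heterochromatin protein Cbx3, and Gm49164 had equal reads in 19 of 21 libraries (0.0693). An exon of Gm49164, a long non-coding RNA gene, overlaps Cbx3-ps6 on the opposite strand, so these are not counts of separate places in the genome. Rpl15-ps3 and Gm49594 differed by at most 0.636% (0.0637). Further pairs under 1 were Rpl10-ps1 with Rpl10-ps5 (0.530), Rpl31-ps9 with Rpl31-ps12 (0.344), Rpl10-ps6 with Gm3379 (0.134), Rps19-ps1 with Rps19-ps2 (0.260), Cbx3-ps2 with Cbx3-ps5 (0.140) and Rpl17-ps8 with Rpl17-ps9 (0.334). Members of such pairs are not independent measurements, and counts of members below include them.

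The largest family was that of Rps12, a protein of the small ribosomal subunit, with 17 named pseudogenes in the files. Rps12-ps9, Rps12-ps3, Rps12-ps10 and Rps12-ps4 averaged 394 to 424 CPM beside 422 for Rps12, and Rps12-ps4 ran from 340 to 572 CPM over the libraries beside 331 to 596 for the parent. Rps12-ps24 averaged 228 CPM. A block of 7 copies, Rps12-ps2 and Rps12-ps11 to Rps12-ps16, all averaged 147 to 148 CPM, Rps12-ps20, Rps12-ps21 and Rps12-ps22 averaged 132 to 133, Rps12-ps23 117 and Rps12-ps5 62.1. The blocks are a description of means that lie close together, and the library ranges of the blocks around 147 and 132 CPM overlapped (97.3 to 178 CPM for Rps12-ps13, 83.2 to 161 CPM for Rps12-ps20).

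PBS replicate 3 was the lowest of the 21 libraries for all 17 Rps12 copies and for 7 of the 8 Rpl21 copies. These copies make up most of the 33 of 208 members (15.9%) that were lowest there. Of the 84 parents 5 (6.0%) were lowest in that library, and the share over all genes was not computed. Rps12-ps3 measured 470.2, 398.3 and 280.2 CPM in the PBS libraries and Rps12-ps13 167.9, 138.0 and 97.3 CPM. The parent went the other way, with Rps12 at 477.4, 419.8 and 503.9 CPM and Rpl21 at 15.6, 16.9 and 18.6 CPM. This library also had the lowest mitochondrial rRNA share of its group (0.797%), whose part in these values was not tested.

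Rpl21, a protein of the large subunit, was a family in which most copies stood above the named parent. Single copies did so elsewhere too. The highest Rps19 copy averaged 700.5 CPM beside 501.5 for Rps19, and the highest Rps2 copy 444.1 beside 365.4 for Rps2. Rpl21 averaged 17.7 CPM (lowest library 11.9, median 16.8, highest 28.4), and Rpl21-ps15 averaged 166 CPM (103 to 243), 9.39 times as much. Rpl21-ps6 averaged 75.2, Rpl21-ps12 51.7, Rpl21-ps3 47.8, Rpl21-ps10 46.2 and Rpl21-ps4 44.3 CPM. Below the parent were Rpl21-ps11 at 11.5 and Rpl21-ps1 at 6.21 CPM. The library ranges of Rpl21-ps15 and Rpl21 did not overlap, whereas those of Rpl21-ps6 (49.3 to 104 CPM) and Rpl21-ps15 touched. The annotation does not say which locus makes most Rpl21 RNA.

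**Figure D2:**
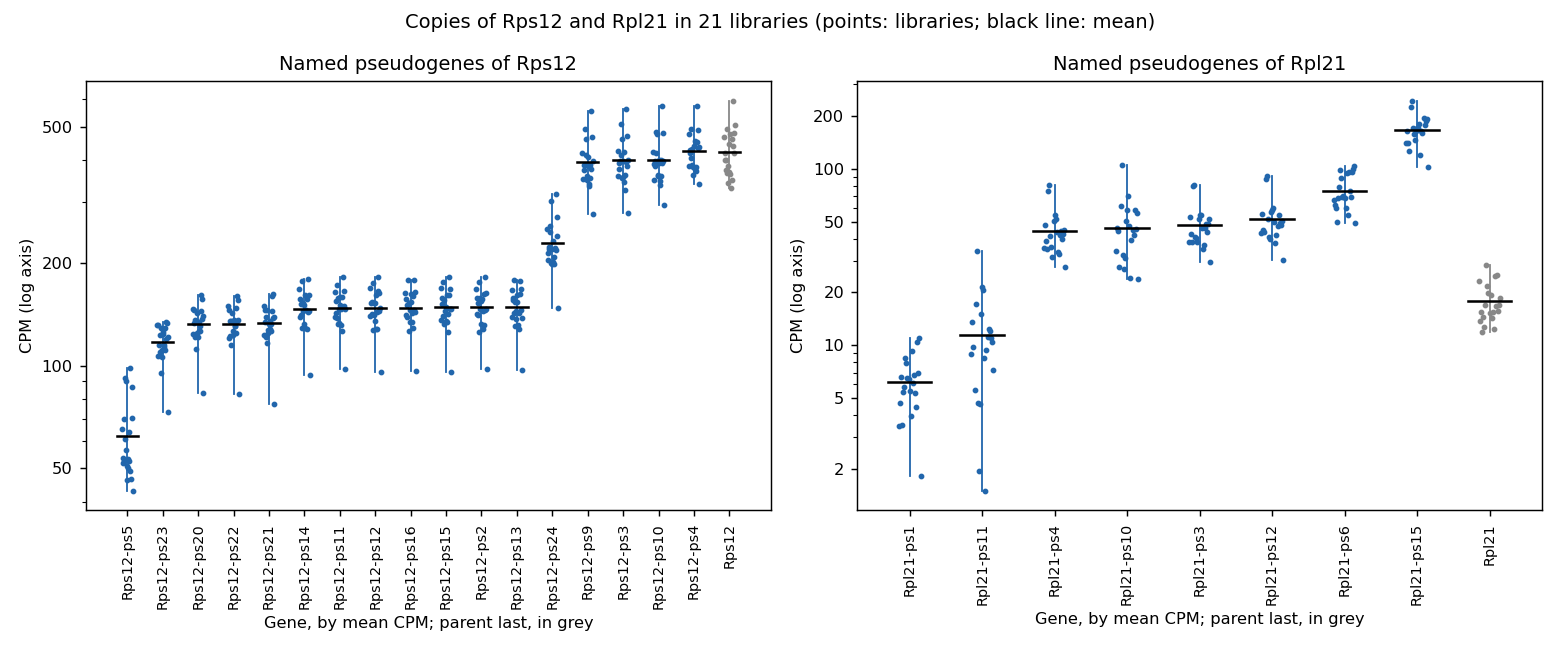
CPM (log axis) of each named pseudogene of Rps12 (left, 17 copies) and of Rpl21 (right, 8 copies), ordered by mean, with the parent last in grey; points are the 21 libraries, vertical lines their range and black bars the mean. The Rps12 copies form steps near 132, 147 and 394 to 424 CPM, and 6 of the 8 Rpl21 copies lie above Rpl21.

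Each agent and dose was compared with PBS, which asks what changed beside Ttr. At 2 µM of TTR-1236, 13 named pseudogenes rose and 17 fell, 14.4% of the 208, where 6.33% of all 9657 genes did so (1.44% higher and 4.89% lower) and 15.6% of the 545 other pseudogenes. Among the 144 ribosomal copies 8 rose and 5 fell (5.56% and 3.47%), with a median log2 fold change of 0.22 and 107 of 144 above 0, and among the 64 other members 5 rose and 12 fell (7.81% and 18.8%), with a median of -0.59. The median over all genes was -0.07, and 64 of all 84 distinct parents lay above 0 (median 0.20). By edgeR with TMM scaling 23 rose and 17 fell. Calls are from limma on log2(CPM + 1) with a Benjamini-Hochberg adjusted p under 0.05 over all genes, and fold changes on this scale understate the change of low genes. The counts rested on single libraries, since 3 members were called without PBS replicate 1, 4 without PBS replicate 2, 4 without TTR-1236 2 µM replicate 3, 11 without its replicate 2 and 61 without its replicate 1. The mitochondrial rRNA share did not overlap between these 2 groups, and its part in the calls was not tested. Without PBS replicate 3 and TTR-1186 2 µM replicate 2, each low in that share within its own group, 20 rose and 36 fell.

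Hspa9-ps1, a copy of the gene for the mitochondrial heat shock protein 70 (mortalin), fell furthest. It lies at chrX:60576946-60578878 on the - strand and is 92.4% identical to Hspa9. In PBS it measured 73.6, 42.9 and 16.9 CPM, with TTR-1236 at 2 µM 3.61, 1.39 and 1.41 CPM, and with Reference 4 at 2 µM 1.70, 2.31 and 0.6435 CPM. With TTR-1186 at 2 µM it measured 22.8, 9.06 and 35.2 CPM. Both the TTR-1236 and the Reference 4 libraries lay below every PBS library, with no overlap, and the TTR-1186 libraries overlapped PBS.

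The log2 fold change of Hspa9-ps1 against PBS was -3.70 ± 0.465 (SE, adjusted p = 0.000188, limma, n = 3) with TTR-1236 and -3.99 ± 0.465 (adjusted p = 8.05e-05) with Reference 4. With TTR-1186 it was -0.92, with a 95% interval of -1.88 to 0.05 (adjusted p = 0.542). Hspa9 itself stayed between 166 and 289 CPM in all 21 libraries, with changes of 0.06 for both TTR-1236 and Reference 4 at 2 µM.

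Tmed10-ps, a copy of a gene for a cargo receptor of the early secretory pathway, lies in an intron of Lyrm4. It measured 10.2, 16.5 and 8.28 CPM in PBS, 0, 0.355 and 2.25 CPM with TTR-1236 at 2 µM, 2.23, 2.04 and 4.81 CPM with Reference 4 and 10.3, 4.53 and 15.7 CPM with TTR-1186. The libraries of TTR-1236 and Reference 4 at 2 µM again lay below all PBS libraries. Its log2 fold changes were -2.90 ± 0.443 (adjusted p = 0.00164, limma) and -1.67 ± 0.443 (adjusted p = 0.0484), beside 0.09 and 0.03 for Tmed10 and -0.14 and -0.03 for Lyrm4.

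Tcea1-ps1, a copy of the gene for the transcription elongation factor TFIIS, has no host gene. It measured 24.9, 18.8 and 5.39 CPM in PBS, 0.394, 0.591 and 0.843 CPM with TTR-1236 at 2 µM and 2.98, 1.31 and 0 CPM with Reference 4 at 2 µM, again without overlap. The log2 fold changes were -3.21 (adjusted p = 0.0172, limma) and -2.83 (adjusted p = 0.0472), whereas Tcea1, at 21.2, 11.3 and 8.35 CPM in PBS, had -0.59 and -0.55. Within groups Tcea1-ps1 varied widely, at 25.03, 2.995 and 24.25 CPM with TTR-1186 at 0.2 µM.

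Hspd1-ps3, a copy of the gene for the mitochondrial chaperonin Hsp60, fell from 112, 56.9 and 21.9 CPM in PBS to 3.61, 4.23 and 8.99 CPM with TTR-1236 at 2 µM (log2 -3.10 ± 0.632, adjusted p = 0.0141, limma), beside -0.34 for Hspd1. Other large falls were of Tpt1-ps5 (-3.18), from 22.4, 15.9 and 1.25 to 0, 0.0887 and 0.09365 CPM, Rps24-ps2 (-2.56, Rps24 0.52), Mup-ps13 (-2.49), a copy in the major urinary protein cluster, and Morf4l1-ps1 (-2.39), a copy of a chromatin reader gene inside an intron of Lpp on the same strand (Lpp -0.67, adjusted p = 0.0621; Morf4l1 -0.78). In each of these 5, PBS replicate 3 was the lowest of the PBS libraries, and every TTR-1236 2 µM library lay below it.

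Cdv3-ps fell by 2.37 with TTR-1236 and by 2.14 with Reference 4 on the log2 scale.

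**Figure D3:**
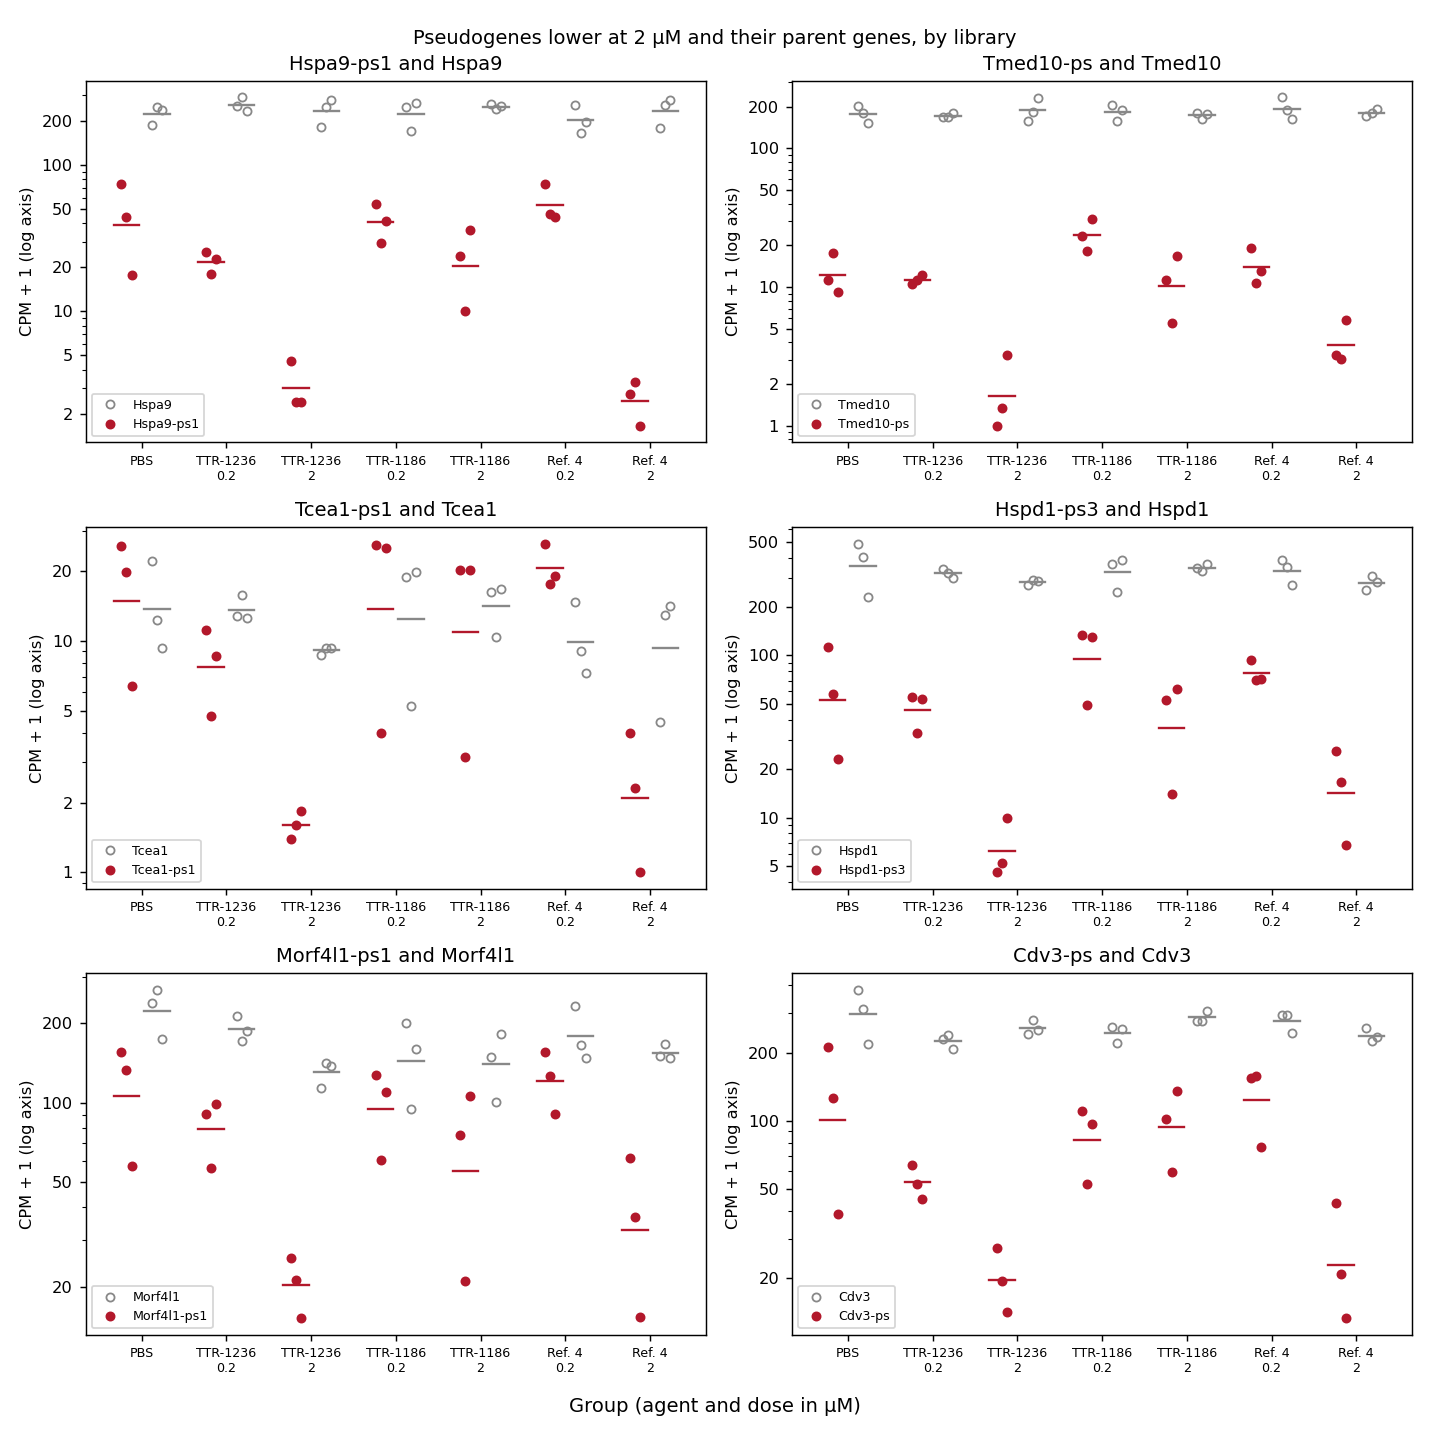
CPM + 1 (log axis) of 6 named pseudogenes (filled red) and their parents (open grey) in the 7 groups, with 1 point per library and bars at the mean of the log values. Hspa9-ps1, Tmed10-ps and Tcea1-ps1 have their lowest group means in TTR-1236 2 µM and Reference 4 2 µM, while Hspa9 stays between 166 and 289 CPM.

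Other classes of members moved in both directions with TTR-1236 at 2 µM. Of the 8 copies of liver secreted, carrier and detoxification genes 2 rose and 2 fell (median -1.22), and of the 6 copies of chaperone and ubiquitin genes 2 rose and 2 fell (median 0.18). All 4 members named for respiratory chain and ATP synthase genes had values above 0, of which 1 passed (median 0.60, over the 4).

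The major urinary proteins are pheromone carriers that the mouse liver secretes, and 5 named pseudogenes of their cluster on chromosome 4 were in the files. Mup-ps13 measured 264.7, 239.9 and 77.0 CPM in PBS, 44.8, 31.5 and 17.9 CPM with TTR-1236 at 2 µM, and 111.5, 76.1 and 33.6 CPM with Reference 4 at 2 µM. The TTR-1236 libraries lay below PBS and the Reference 4 libraries overlapped it. Mup-ps6 fell as well (-2.203 ± 0.484, adjusted p = 0.0146, limma), from 18.99, 25.9 and 7.97 CPM to 4.96, 2.99 and 1.08 CPM. Mup-ps19, Mup-ps21 and Mup-ps17 had -2.10, -1.73 and -0.70 and did not pass. Unlike most members these are annotated as unprocessed or transcribed unprocessed pseudogenes, copies made by duplication of DNA.

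The 4 copies of Cbx3, Cbx3-ps2, Cbx3-ps5, Cbx3-ps6 and Cbx3-ps7, averaged 7.78 to 9.29 CPM and had -1.65 to -1.35 with TTR-1236 at 2 µM, none called (lowest adjusted p = 0.051, limma), beside -0.42 for Cbx3. Their reads moved in step, so they too are close to 1 measurement.

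Of the members that fell with TTR-1236 at 2 µM, 15 had a parent in the files, and for none of the 15 did the parent pass the test as lower. Of all 84 distinct parents 1 was called lower (1.19%), so a parent called lower was rare in any case. Over these 15 members the median log2 fold change of the parent was 0.04 (-1.37 to 0.52). Each of the 15 members had moved further than its parent. The members were picked by their own falls in this comparison and the parents were not, so no conclusion is drawn from that. Of the 17 that fell, 5 lie in an intron of a gene on the same strand. In cultures sequenced in bulk, fewer cells of a kind and less RNA per cell cannot be told apart.

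Of the 13 members that rose with TTR-1236 at 2 µM, 11 had a parent in the files, and 6 of those had a parent that rose too, with a median parental change of 0.49 (0.30 to 0.62). Among all 84 distinct parents 6 rose (7.14%). Rpl10-ps6, a copy of the ribosomal protein gene Rpl10 in an intron of Ide, measured 610.2, 570.0 and 571 CPM in PBS, 799.5, 1146 and 1290.0 CPM with TTR-1236 at 2 µM and 875, 867 and 962 CPM with Reference 4 at 2 µM. Neither group overlapped PBS. Its log2 fold changes were 0.86 ± 0.149 (adjusted p = 0.00421, limma) and 0.63 ± 0.149 (adjusted p = 0.0302), beside 0.53 and 0.47 for Rpl10 and -0.73 (adjusted p = 0.0386) and -0.69 (adjusted p = 0.0703) for Ide, the host, which codes for insulin-degrading enzyme.

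Rpl10-ps3 followed Rpl10 closely, with 0.50 and 0.53 at TTR-1236 2 µM. Rpl15-ps2 measured 166, 182.5 and 156 CPM in PBS, 209.7, 350.3 and 523 CPM with TTR-1236 at 2 µM and 257, 300.5 and 361.5 CPM with Reference 4 at 2 µM, all above PBS. It rose by 1.00 ± 0.214 (adjusted p = 0.0131, limma) and 0.85 ± 0.214 (adjusted p = 0.0378), beside 0.37 and 0.27 for Rpl15, which did not pass.

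Other large rises were of Atp5l-ps1 (1.15), a copy of a gene for an ATP synthase subunit, Rpl31-ps10 (1.00) and Hsp25-ps1 (0.92), a copy of a small heat shock protein gene. Atp5l-ps1 went from 18.2, 13.8 and 7.745 CPM in PBS to 22.1, 29.7 and 37.4 CPM, without overlap, and Atp5l rose by 0.50. The 2 highest members rose as well. Ftl1-ps1 rose by 0.42 (adjusted p = 0.0439, limma) beside 0.62 for Ftl1, and Gstp-ps by 0.41 (adjusted p = 0.0395, limma). Ftl1-ps1 was called in 7 of 16 alternative fits, and not with TMM scaling or edgeR. Gstp-ps was called in 11 of 16. Gstp-ps measured 2794, 3326 and 3058 CPM in PBS and 3845, 4080.0 and 4260.0 CPM with TTR-1236 at 2 µM, without overlap. Ftl1-ps1 measured 4192, 4266 and 5656 CPM and then 6413, 6207 and 6148 CPM, also without overlap.

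The 7 copies of Rpl31 differed in level and in response. Rpl31-ps8, whose window matched the parent, averaged 453 CPM and had -0.06 with TTR-1236 at 2 µM, beside 0.30 for Rpl31, and neither passed. Rpl31-ps9, Rpl31-ps12 and Rpl31-ps10, which share 1 changed base in the window, averaged 68.0, 68.5 and 28.7 CPM and rose by 0.84, 0.82 and 1.00. Rpl31-ps16, with the same window, and Rpl31-ps13, with a further change, averaged 7.62 and 7.89 CPM and had 1.07 and 1.32, which did not pass (adjusted p = 0.113 and 0.0703, limma). Rpl31-ps9 measured 48.6, 62.2 and 47.5 CPM in PBS and 61.1, 85.7 and 160.8 CPM with TTR-1236 at 2 µM, so its lowest treated library lay under its highest PBS library.

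**Figure D4:**
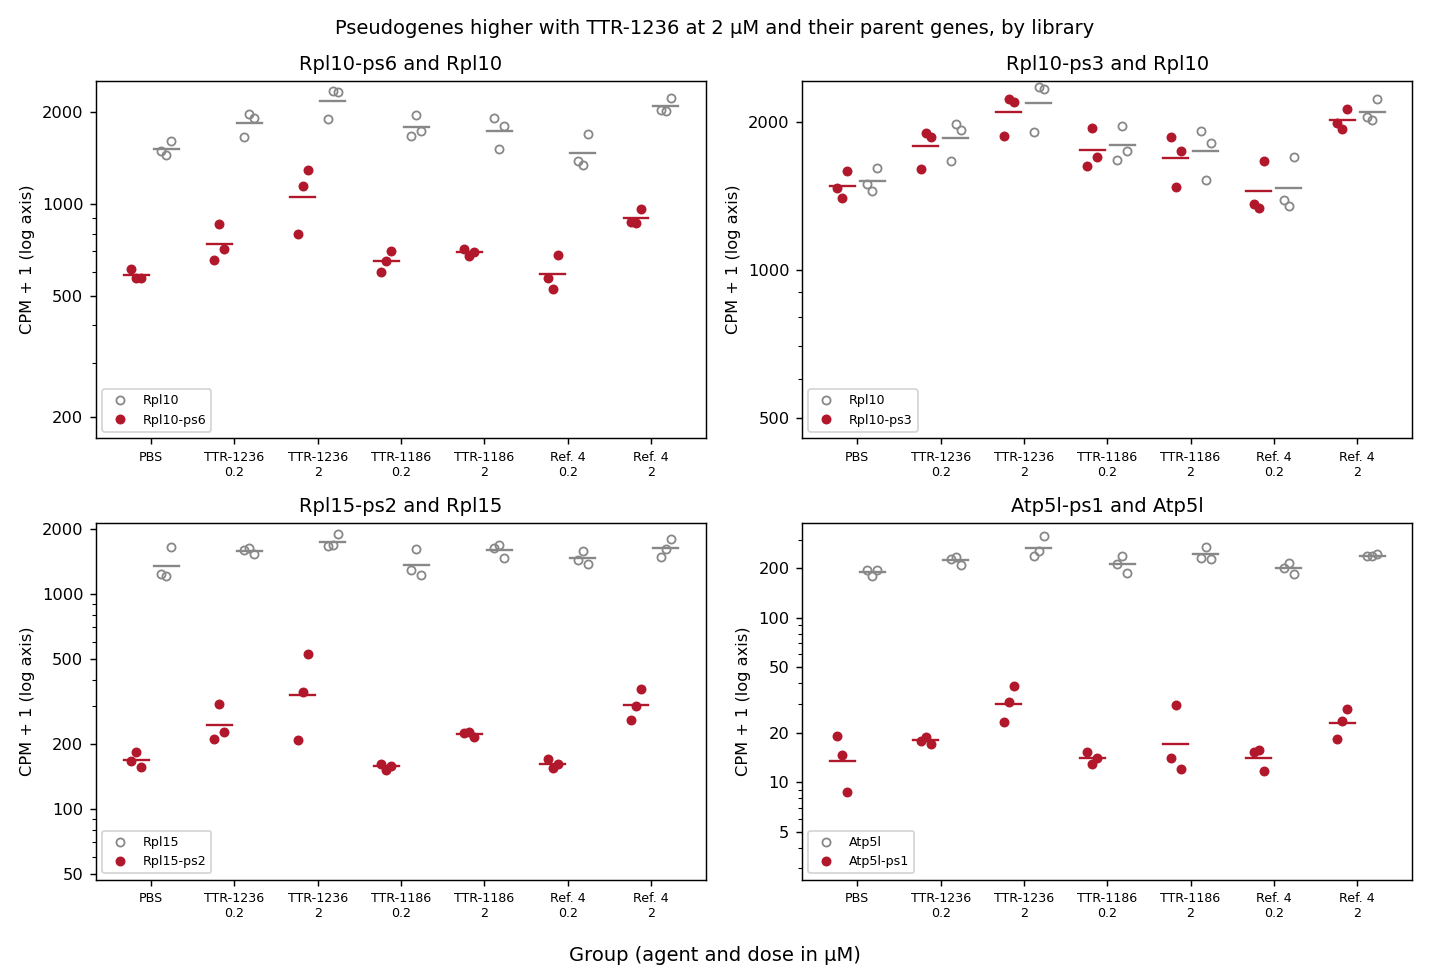
CPM + 1 (log axis) of 4 named pseudogenes (filled red) and their parents (open grey) in the 7 groups, with 1 point per library and bars at the mean of the log values. All 3 libraries of TTR-1236 2 µM lie above the PBS libraries for Rpl10-ps6, Rpl15-ps2 and Atp5l-ps1, and Rpl10-ps3 follows Rpl10 through all groups.

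With Reference 4 at 2 µM, 2 members rose and 6 fell against PBS, 3.85% of the 208, where 2.25% of all genes did so (0.59% higher, 1.66% lower). By edgeR with TMM scaling 3 rose and 3 fell. Rpl10-ps6 and Rpl15-ps2 rose, and Hspa9-ps1, Tcea1-ps1, Cdv3-ps, Tmed10-ps, Rpl26-ps2 (-1.12) and Amd-ps3 (-0.88) fell. Of the 144 ribosomal copies 2 rose and 1 fell (median 0.16), and of the 64 others 5 fell (median -0.41), beside -0.03 for all genes. The comparison shares its PBS libraries with the TTR-1236 comparison, so the members called in both are not independent. The count went to 38 without PBS replicate 3, to 1 without PBS replicate 1, PBS replicate 2 or Reference 4 2 µM replicate 3, to 2 without Reference 4 2 µM replicate 1, to 4 without its replicate 2, and to 49 without PBS replicate 3 and TTR-1186 2 µM replicate 2. The share of that RNA overlapped between the groups, at 0.383% to 1.098% against 0.797% to 3.26%, and its part was not tested.

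With TTR-1186 at 2 µM no member was called by limma, edgeR or DESeq2, where limma called 0.0518% of all genes (0.0104% higher, 0.0414% lower), and 11 members had an unadjusted p under 0.05. Of the 144 ribosomal copies 118 had a value above 0, with a median of 0.21, and the 64 others had a median of -0.12. Above 0 were also 69 of all 84 distinct parents (median 0.13) and 4679 of all 9657 genes (median -0.01). At 0.2 µM no member was called for TTR-1236, TTR-1186 or Reference 4 by any of the 3 tools, where limma called 0.0207%, 0.0311% and 0.166% of all genes, and 14, 24 and 21 members had an unadjusted p under 0.05.

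**Figure D5:**
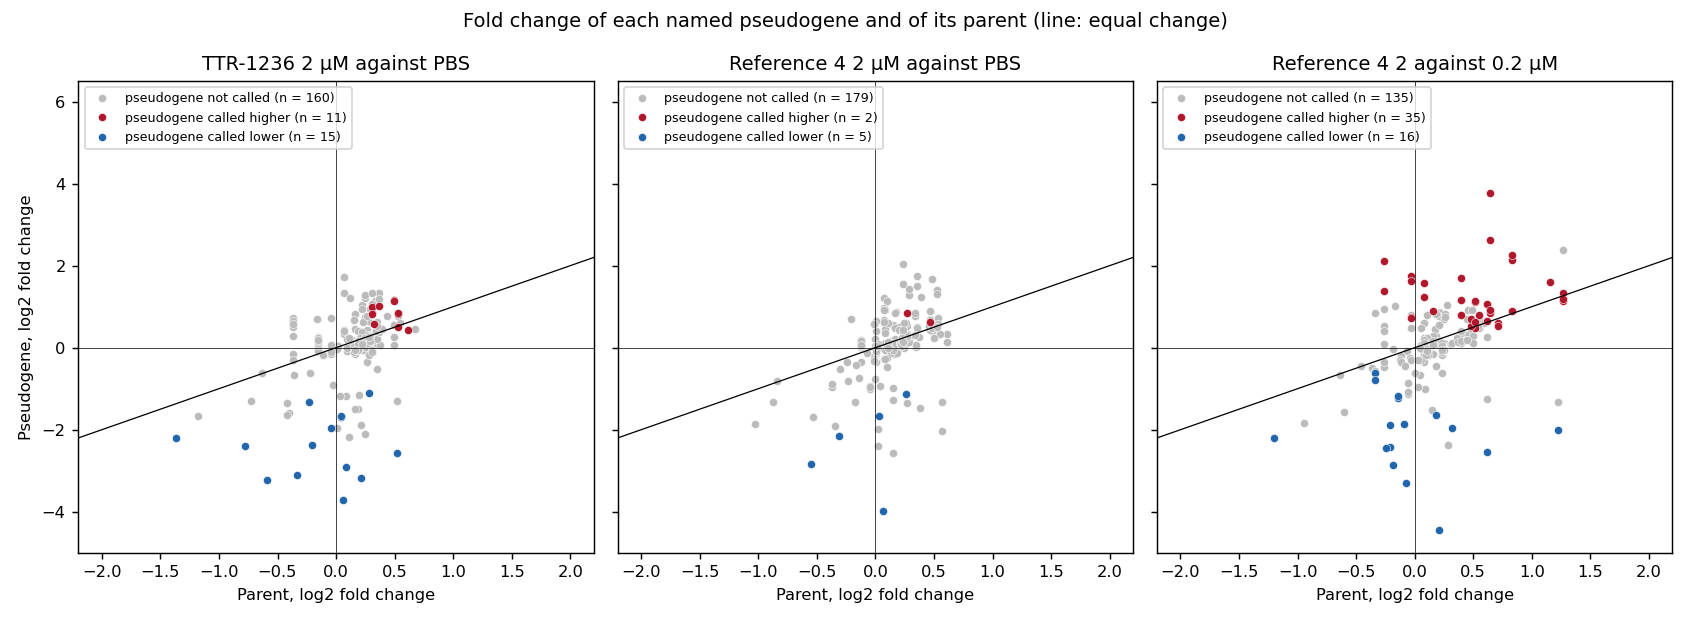
Log2 fold change of each of the 186 named pseudogenes with a parent in the files (vertical) against that of its parent (horizontal), for TTR-1236 2 µM against PBS, Reference 4 2 µM against PBS and Reference 4 2 against 0.2 µM; the sloped line marks equal change, and vertical and horizontal scales differ. Pseudogenes called lower (blue) lie below that line, and those called higher (red) lie mostly at parents above 0. The colours follow the test of the pseudogene itself, so their place against the line is no separate result.

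The doses of each agent were then compared. Reference 4 at 2 µM differed from 0.2 µM in the most members, with 36 that rose and 21 that fell, 27.4% of the 208, where 12.8% of all genes were called (6.78% higher, 6.05% lower) and 29.5% of the other pseudogenes. Of the 36 that rose, 35 were ribosomal copies, and the other was Ndufb1-ps. Its symbol points to a gene for a subunit of respiratory complex I, and no gene with the symbol Ndufb1 was in the files. Whether it is a copy of another gene was not examined. Of the 21 that fell, 8 were ribosomal copies. The count was 10 without Reference 4 2 µM replicate 3, 35 without its replicate 2, and 32 and 26 without Reference 4 0.2 µM replicates 1 and 2. The mitochondrial rRNA share did not overlap between the doses, and its part was not tested.

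Rps2-ps5 rose most between the doses of Reference 4. It measured 2.68, 0.601 and 2.90 CPM at 0.2 µM and 19.1, 46.5 and 60.5 CPM at 2 µM, with PBS between at 5.59, 13.45 and 7.78 CPM. The log2 fold change was 3.77 ± 0.751 (adjusted p = 0.00538, limma), beside 0.64 for Rps2 (adjusted p = 0.00519). All 5 named copies of Rps2 rose, by 0.84 to 3.77, as did all 4 of Rpl10 (0.48 to 1.15) and all 3 of Rpl9, whose Rpl9-ps4 went from 10.95, 2.67 and 6.61 to 19.3, 33.6 and 49.99 CPM (2.25 ± 0.465, adjusted p = 0.00521), beside 0.83 for Rpl9.

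The other large rises were of Rps2-ps11 (2.62) and Ndufb1-ps (2.14), from 6.36, 3.47 and 3.98 to 13.7, 27.6 and 32.2 CPM. Of the 36 members that rose, 35 had a parent in the files, and for 22 of these members the parent rose and for none it fell. Several of them share a parent, and of the 84 distinct parents 15 rose. Rpl7a-ps5, Rpl7a-ps7 and Rpl7a-ps10 rose by 1.20, 1.14 and 1.33 beside 1.26 for Rpl7a, and Rpl7a-ps7 went from 99.2, 85.8 and 62.4 CPM to 128.1, 210.1 and 217.0 CPM, without overlap. None of the 17 Rps12 copies, 6 Rpl35a copies, 8 Rps19 copies or 4 Rpl36 copies was called.

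The largest falls between the doses of Reference 4 were of Mup-ps17 (-4.54 ± 1.14, adjusted p = 0.0199, limma), from 158, 88.4 and 89.4 to 2.18, 31.1 and 0 CPM, and Hspa9-ps1 (-4.45 ± 0.465, adjusted p = 2.33e-05), from 73.3, 45.4 and 43.1 CPM to the 1.70, 2.31 and 0.6435 CPM given above. The parent, Hspa9, had 0.21. Tcea1-ps1 (-3.31) and Rpl19-ps1 (-2.86) followed, the latter from 22.5, 14.7 and 10.45 to 1.12, 0.668 and 2.1 CPM beside -0.19 for Rpl19. Of the 21 that fell, 16 had a parent in the files. None of those parents fell, where 1 of all 84 distinct parents did so (1.19%). For 2 of these members the parent rose, namely Tpt1-ps5 (-2.55, Tpt1 0.62) and Rps24-ps2 (-2.01, Rps24 1.23). All 3 copies named for Amd fell (-0.96 to -1.12).

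Between the doses of TTR-1236, Hspa9-ps1 and Tmed10-ps fell and no member rose, where 0.135% of all genes were called. Hspa9-ps1 went from 24.6, 16.9 and 21.8 to 3.61, 1.39 and 1.41 CPM (-2.88 ± 0.465, adjusted p = 0.0146, limma), and Tmed10-ps from 9.48, 10.2 and 11.2 to 0, 0.355 and 2.25 CPM (-2.78 ± 0.443, adjusted p = 0.0146), both without overlap. The mitochondrial rRNA share did not overlap between these doses either, and its part was not tested. The count was 0 without TTR-1236 0.2 µM replicate 1 or 2, 1 without its replicate 3 or 2 µM replicate 3, and 12 without 2 µM replicate 1. Between the doses of TTR-1186 limma called 0% of genes and no member, although 70 members had an unadjusted p under 0.05, edgeR called none and DESeq2 called 7.

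At a matched dose 6 pairs of agents were compared, each adjusted over all genes of its comparison. At 2 µM, TTR-1186 differed from Reference 4 in Hspa9-ps1 (3.07 ± 0.465, adjusted p = 0.00465, limma) and Amd-ps3 (1.12 ± 0.221, adjusted p = 0.025), both higher with TTR-1186, where 0.373% of all genes were called (0.228% higher). Amd-ps3, whose symbol points to the gene for S-adenosylmethionine decarboxylase, measured 141, 191.5 and 175 CPM with TTR-1186 and 85.2, 97.7 and 54.1 CPM with Reference 4. TTR-1236 differed from TTR-1186 at 2 µM in Hspa9-ps1 (-2.79 ± 0.465, adjusted p = 0.0121) and Tmed10-ps (-2.63 ± 0.443, adjusted p = 0.0121), both lower with TTR-1236, where 0.342% of all genes were called (0.0932% higher, 0.249% lower). In each of these 4 cases the 2 groups did not overlap. The mitochondrial rRNA share was higher in every TTR-1186 2 µM library than in the TTR-1236 2 µM libraries, and the part of that in the result was not tested.

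TTR-1236 and Reference 4 at 2 µM differed in no member, with 0% of all genes called and 10 members under an unadjusted p of 0.05, by limma, and edgeR and DESeq2 called none. For Hspa9-ps1 that difference was 0.28, with a 95% interval of -0.68 to 1.25, so these data allow a difference of up to 1.25. The TTR-1186 against Reference 4 count fell to 1 without either of Reference 4 2 µM replicates 1 and 3 or without TTR-1186 2 µM replicate 3. The TTR-1236 against TTR-1186 count fell to 0 without TTR-1236 2 µM replicate 2 or TTR-1186 2 µM replicate 3 and to 1 without TTR-1236 2 µM replicate 3. It was 13 without TTR-1236 2 µM replicate 1 and 16 without TTR-1186 2 µM replicate 2.

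At 0.2 µM no pair of agents differed in a member by limma, with 0% of all genes called. Members with an unadjusted p under 0.05 numbered 53 for TTR-1236 against Reference 4, 16 for TTR-1186 against Reference 4 and 39 for TTR-1236 against TTR-1186. DESeq2 called 13 in the first of these, all higher with TTR-1236, and none in the other two, and edgeR called none. Whether the response to dose itself differed between agents was tested with an interaction term. By limma 0% of genes passed and no member did, with 28, 28 and 19 members under an unadjusted p of 0.05, and DESeq2 called 5, 4 and 0. For Hspa9-ps1 the dose response of TTR-1186 less that of Reference 4 was 3.47, with a 95% interval of 2.103 to 4.829 (adjusted p = 0.125).

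Members rose and fell in every class of genomic position. With TTR-1236 at 2 µM, members in an intron of a gene on the same strand had a median log2 fold change of 0.19 (27 members, 4 rose and 5 fell), those in an intron on the opposite strand 0.27 (37 members, 3 and 2), those with no other annotated gene 0.13 (127 members, 4 and 9) and those overlapping an exon 0.14 (17 members, 2 and 1). Reads of a host intron on the same strand cannot be told apart from those of a pseudogene within it. For a host on the opposite strand they can be told apart only if counting used strand, which was not given in the sources used here.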

How the data were processed

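The 21 libraries of primary mouse hepatocytes were deposited by the authors as CPM per Ensembl gene ID, each column summing to 1000000 over the same 9657 genes. Reads were trimmed with cutadapt 1.15, aligned to mm10 with HISAT2 2.1.0 and counted with featureCounts, per the submitters' processing notes. Settings, strand, the treatment of reads with several alignments and the annotation release were not given in the sources used here. IDs were matched to GENCODE vM21 (9652 of 9657). In every library 100% of values were whole multiples of 1 read to within 0.001 reads, which gave depths of 14158740 to 37410773 reads.

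Groups came from the sample titles. Differences were tested with limma 3.58.1 (R 4.3.3, trend and robust) on log2(CPM + 1), with 7 group means over 21 libraries and Benjamini-Hochberg adjustment over all genes at 0.05, for 15 comparisons and 3 differences between dose responses. Transcripts were aligned to those of the parent with BLAST+ 2.17.0 (e-value 1e-05). Printed sequences are the 60 coding bases before the stop codon.

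Named in the text were Ttr, the 6 highest and 2 lowest members, up to 8 falls and 6 rises against PBS by size, all called members of a dose or agent comparison if at most 8 and otherwise the 4 largest each way, members called in 2 comparisons with PBS, members of families of at least 3, and their parents and hosts. Tdg-ps, Gpx4-ps2, Krt8-ps, Tpt1-ps3 and Rpl27-ps3 were named after their values were seen. The members and lists were chosen with earlier results of these data known. Alternatives were other pseudocounts (0.5 and 5), TMM scaling, a minimum mean of 10 CPM, a replicate block, only the libraries compared, each replicate left out, and edgeR 4.0.16 and DESeq2 1.42.0 on the recovered reads. No sequence of chromosome 18 is printed. Results on a few genes are not reported here.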

Additional observations from a re-analysis of the deposited data

How the results depend on the processing

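Of 69 called values of single named genes in these comparisons, none changed direction under any alternative. With a replicate block 68 were called, with pseudocounts of 0.5 and 5 CPM 65 and 63, with TMM scaling 65, with edgeR 58, with DESeq2 68, and in fits of only the libraries compared 38. Hspa9-ps1 was called in all 16 alternatives against PBS with TTR-1236 (-4.30 to -2.62) and Reference 4 at 2 µM (-4.77 to -2.74), and Tmed10-ps in 15 of 16 and 7 of 16. In fits of only the libraries compared, the count of members was 3 for TTR-1236 2 µM against PBS, 1 for Reference 4 2 µM against PBS, 14 between the doses of TTR-1236 and 33 for TTR-1236 against Reference 4 at 0.2 µM. DESeq2 called 62, 36, 16 and 13 in the same order, 7 between the doses of TTR-1186, 5 where TTR-1186 was set against Reference 4 and 21 where TTR-1236 was set against TTR-1186 (both 2 µM), and 5 and 4 for the dose response of TTR-1236 and of TTR-1186 less that of Reference 4. Without PBS replicate 3 and TTR-1186 2 µM replicate 2, a choice made after seeing the data, the counts against PBS were 1, 1 and 5 at 0.2 µM of TTR-1236, TTR-1186 and Reference 4, 56 and 49 at 2 µM of TTR-1236 and Reference 4, 15 between the doses of TTR-1236, 10 where TTR-1186 was set against Reference 4 and 29 where TTR-1236 was set against TTR-1186 (both 2 µM), and 1 for the dose response of TTR-1186 less that of Reference 4. A pseudocount of 0.5 gave 5 for Reference 4 2 µM against PBS, and a pseudocount of 5 and both edgeR fits gave 0 between the doses of TTR-1236. The cause was not tested. The split of rises and falls for TTR-1236 2 µM was 13 and 17 with limma and 23 and 17 with edgeR and TMM, and for Reference 4 2 µM 2 and 6 against 3 and 3, or 4 and 5 with TMM-scaled CPM.

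Leaving out each replicate in turn gave 3 to 61 members for TTR-1236 2 µM against PBS, 1 to 38 for Reference 4 2 µM, 0 to 1 for TTR-1186 0.2 µM, 0 to 3 for Reference 4 0.2 µM, 0 to 12 between the doses of TTR-1236, 10 to 56 between those of Reference 4, 1 to 3 where TTR-1186 was set against Reference 4 and 0 to 16 where TTR-1236 was set against TTR-1186 (both 2 µM), and 0 to 4 and 0 to 1 for the dose responses of TTR-1236 and TTR-1186 less that of Reference 4. Replicate numbers did not pair the samples, since correlations of same-numbered libraries ran from -0.392 to 0.289 (median 0.018), and the replicate block gave 35 for TTR-1236 2 µM against PBS, 7 between its doses and 4 where TTR-1236 was set against TTR-1186 (both 2 µM). The median share of 50-base words found in the parent, 56.1%, was 40.8% for words of 75 bases and 30.6% for 100. Depth limits the lowest members, in which a library can hold fewer than 10 reads.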
